A study of Mus musculus with 34 samples.

Results

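A pair of chemical routes from mouse fibroblasts to neuronal cells were compared, each represented by 1 RNA-sequencing library. These were 2 of the 34 libraries of the series. TauEGFP+ colonies-1 came through an intermediate state that resembles extraembryonic endoderm (the XEN-like state), and the other library held neuronal cells induced directly with the mixture FICB. They were taken as the study's labels name them, and both stand in 1 table, together with the fibroblasts they are set against. Olfm4, Wfdc2, Penk and Sfrp2 were chosen to mark the difference with earlier results of these data known.

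Extraembryonic endoderm is an early lineage that lines the yolk sac. It is known for the transcription factors Gata4, Gata6, Sox17 and Sox7, for simple keratins and for thick basement membrane. FICB stands for forskolin, which raises cyclic AMP, ISX9, a small molecule that promotes neuronal differentiation, CHIR99021, an inhibitor of GSK3 that activates Wnt signalling, and I-BET151, an inhibitor of BET bromodomain proteins. In neurons cyclic AMP acts through CREB, a factor that binds the cAMP response element in promoters of several neuropeptide genes.

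The colonies, the FICB cells, the fibroblasts and the brain carried the allele Mapttm2(EGFP)Klt/J, in which a green fluorescent protein was put into the gene for Tau, Mapt. The colonies bear the name of that reporter, so Mapt itself is not read as a result. The fibroblasts were mouse embryonic fibroblasts, and the FICB cells and the colonies were labelled as chemically induced from mouse fibroblasts. Primary neurons-1 were cortical neurons of the strain C57BL/6. The labels used here give no age, dose, duration of treatment or number of pooled colonies. A colonies-2 library stands in another table, where its label also calls it P2 XEN derived CiNs, so it may be a later derivation and not a repeat of colonies-1. With 1 library a side there was no replicate error and no test, and every difference below compares these libraries and not the conditions.

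Levels were given in FPKM, a fragment count adjusted for how long the gene is and how deep the library was sequenced. Apparent depth in the 5 libraries of the table lay between 9700000 and 12200000 fragments, by an estimate that may be off by a factor of 2. The number of genes at 1 FPKM or more was 14466 in colonies-1 and 12929 in FICB cells, and it was 12451 in the fibroblasts. The library labelled primary neurons-2, in the table with colonies-2, went against its label. It held Gfap, an astrocyte filament, at 2688 FPKM and the neuronal gene Dcx at 0.48 FPKM, and it was not used as a reference. Colonies-1 and FICB cells share their table with each other and not with colonies-2. Tables were normalised separately, so levels set across them are descriptions.

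Both libraries held neuronal transcripts, and colonies-1 held more of the defining ones. Dcx, a microtubule protein of young neurons, stood at 21.4 FPKM in colonies-1, 0.33 in FICB cells, 0.08 in fibroblasts, 84.3 in primary neurons-1 and 52.9 in brain. Map2, a protein of dendritic microtubules, was 93.3 FPKM in colonies-1, 18.4 in FICB cells, 1.93 in fibroblasts and 239 in primary neurons-1. Rbfox3, the antigen of the nuclear stain NeuN, read 8.50 FPKM in colonies-1, 1.17 in FICB cells and 48.7 in primary neurons-1. The 3 genes have the same order, with primary neurons highest and FICB cells above the fibroblasts. For Dcx the values of FICB cells and fibroblasts were both under 1 FPKM, so their order carries little weight. Snap25, a protein of vesicle fusion, instead reached 98.7 FPKM in FICB cells, 73.3 in colonies-1 and 35.2 in primary neurons-1. In bulk samples fewer cells of a type and less RNA per cell cannot be told apart.

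Differences are given as colonies-1 minus FICB cells in log2(FPKM + 1), over genes at 1 FPKM or more in either library. At least 2-fold higher in colonies-1 were 2561 of 14896 genes, 17.2% of them, and at least 2-fold lower were 708 genes, 4.75%. The median gene stood 0.21 higher in colonies-1 on the log2 scale. When that shift was removed by median-ratio scaling, 1992 genes were higher and 1024 lower. The higher share of the calls was then 66% in place of 78.3%. Members of a list are read against these percentages, which cover genes past the filter, while list counts are out of all members in the table. Members under the filter cannot be called, so lists with many of them read low. The filter was passed by 4 of 10 endothelial, 6 of 12 oligodendrocyte and Schwann, and 11 of 17 monoamine and cholinergic genes. It was passed by 14 of 19 GABA and 12 of 18 cortical genes. List medians cover every member in the table, and the gene lists were chosen with earlier results known.

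**Figure D1:**
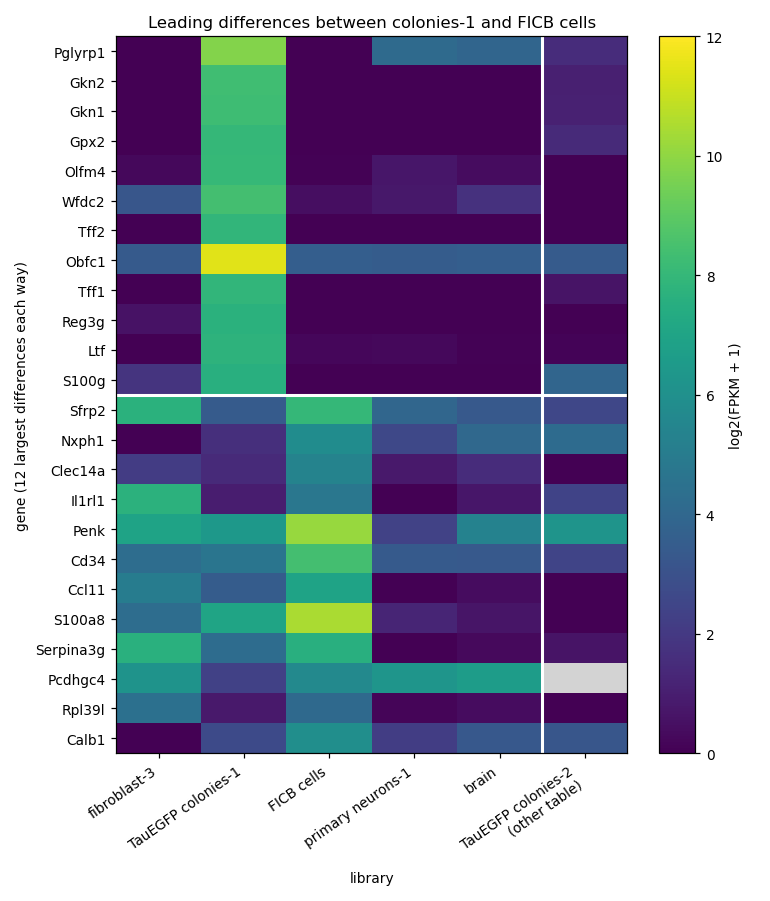
Levels of the 12 largest differences in each direction, as log2(FPKM + 1) by color, in the 5 libraries of the table and, right of the white line, in colonies-2 from the separately normalised table (grey, no value). The upper 12 genes are brightest in colonies-1 among the 6 libraries, and the lower 12 are brighter in FICB cells than in colonies-1.

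Most of the genes that led in colonies-1 are known from mucosal epithelium. Olfm4, a glycoprotein of intestinal crypts (chr14:79984081-80023139, plus strand, mm10), was 264 FPKM in colonies-1, 0.06 in FICB cells, 0.20 in fibroblasts, 0.63 in primary neurons-1 and 0.34 in brain. Wfdc2, a secreted protein with a protease-inhibitor fold (chr2:164562413-164568510, plus strand), reached 340.0 FPKM in colonies-1 and 0.37 in FICB cells, with 8.11 in the fibroblasts. On the log2 scale the differences were 7.97 and 7.96. Colonies-1 was the only library of the table with either gene above 10 FPKM.

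The gastric genes showed the same contrast. Gkn1 and Gkn2, secreted by surface cells of the stomach, were at 309.98 and 317.86 FPKM in colonies-1 and were listed at 0 in FICB cells, fibroblasts, primary neurons-1 and brain. Tff1 and Tff2, trefoil peptides of mucus, stood at 236 FPKM each in colonies-1 and were listed at 0 in the other 4 libraries. Reg3g, an antibacterial lectin of the gut, was 202 FPKM in colonies-1, listed at 0 in FICB cells, and 0.50 in the fibroblasts. Pglyrp1, which binds bacterial cell wall, had the largest difference at 9.79, from 882 FPKM in colonies-1 and a listed 0 in FICB cells. Gpx2, a glutathione peroxidase of gut epithelium, was 257 FPKM against a listed 0. Ltf, the iron-binding lactoferrin, was 218 FPKM against 0.17. S100g, a calcium-binding protein of absorptive epithelium, was 186 FPKM against a listed 0.

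Of the 28 genes on the list of secretory and gut epithelium, 25 were at least 2-fold higher in colonies-1 and 0 were lower. Their median difference was 4.85 against 0.21 for all genes. Lcn2, an iron-scavenging protein also made in inflammation, was the highest member in both libraries and was nearer between them, with 605 FPKM in colonies-1 and 232 in FICB cells. Fibroblasts held it at 326 FPKM. Among the 20 genes of epithelial junctions, 18 were higher and 0 lower, with a median of 2.55. That median was 0.29 with colonies-2 of another table in place of colonies-1. Cldn4, a tight-junction claudin, was 72.6 FPKM in colonies-1 and listed at 0 in FICB cells. Epcam, an adhesion molecule of epithelia, was 52.1 against 0.37 FPKM. Cdh1, the epithelial cadherin, was 39.8 against 0.06 FPKM. Jup, the junction protein plakoglobin, is also made outside epithelia, and stood at 37.9 FPKM in colonies-1, 14.7 in FICB cells and 43.5 in fibroblasts.

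Transcripts of the XEN-like state were present in colonies-1. The list of core extraembryonic endoderm held 10 of 20 genes at least 2-fold higher and 1 lower, with a median of 1.44, or 0.35 with colonies-2 of another table in place of colonies-1. Sox17 was 54.0 FPKM in colonies-1, listed at 0 in FICB cells and in fibroblasts, and 7.16 in primary neurons-1. Gata4 was 26.4 FPKM in colonies-1, 1.69 in FICB cells and 0.79 in fibroblasts. Gata6 was 19.6 FPKM in colonies-1 against 4.03 in FICB cells. In the study's 8 XEN-like colonies of another table Sox17 ranged from 266 to 1309 FPKM, with a median of 404, Gata4 from 188 to 464 and Gata6 from 12.6 to 84.7. Colonies-1 lay below these ranges for Sox17 and Gata4 and within the range for Gata6.

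Keratins had the widest differences of this list. Krt8, a keratin of simple epithelia, was 167 FPKM in colonies-1 and listed at 0 in FICB cells. Its partner Krt18 was 134 against 0.21 FPKM, and Krt19 was 151 against 0.19 FPKM. The basement-membrane members were close between the libraries. Col4a1, a collagen chain, was 232 FPKM in colonies-1 and 164 in FICB cells, and Lamb1, a laminin chain, was 219.7 against 159. Sparc, a matrix-binding glycoprotein, was 741 in colonies-1, 1212 in FICB cells and 2199.5 FPKM in fibroblasts. Sox7 went the other way, at 1.26 FPKM in colonies-1 and 11.8 in FICB cells.

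The mucosal genes differed in whether the XEN-like colonies held them. Across the 8 XEN-like colonies Gkn1 reached at most 1.92 FPKM, Tff1 at most 1.32, and Olfm4 was listed at 0 in each. Reg3g and Gkn2 were also listed at 0 in each. Other genes were high there, with a median of 5212 FPKM for S100g, 144 for Epcam, 143 for Elf3, an epithelial transcription factor, and 59.96 for Gpx2, which ranged from 20.6 to 287.

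Serum proteins of visceral endoderm were mostly low in both libraries. Apoe, a lipid carrier, was 1332 FPKM in colonies-1, 119 in FICB cells and 59.3 in fibroblasts. Cited1, a transcriptional cofactor, was 28.7 against 3.83 FPKM. Alb, the serum albumin, was 3.52 FPKM in colonies-1 and 12.5 in FICB cells. Of the 16 listed genes 9 were higher and 1 was lower, with a median of 1.66, or 0.30 with colonies-2 in place of colonies-1.

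**Figure D2:**
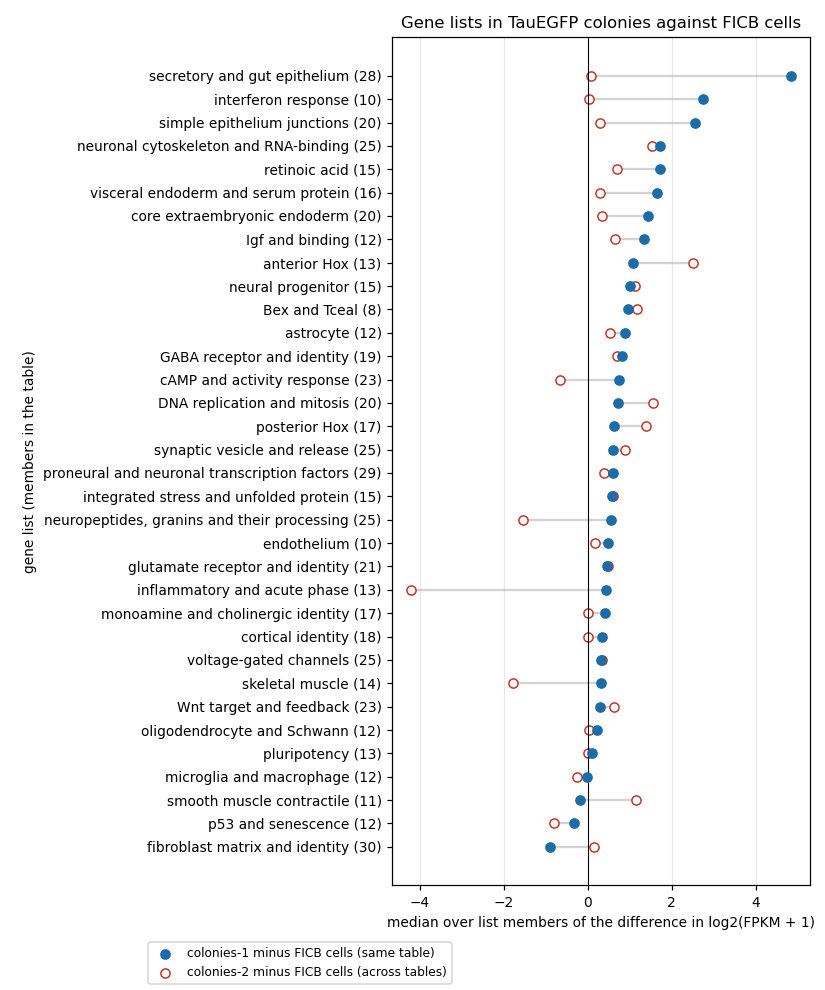
Median over each gene list of the difference in log2(FPKM + 1), for colonies-1 minus FICB cells (filled circles) and colonies-2 minus FICB cells (open circles, across separately normalised tables). Secretory and gut epithelium lies at 4.85 for colonies-1 and 0.07 for colonies-2, while the neuronal cytoskeleton list lies at 1.73 and 1.53.

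Structural genes of neurons were higher in colonies-1 as a group, though not the most abundant of them. In the list of neuronal cytoskeleton and RNA-binding proteins 16 of 25 genes were at least 2-fold higher and 1 was lower, with a median of 1.73. Tubb3, a further listed gene, was not analysed here. Gap43, a growth-cone protein, was 509.7 FPKM in colonies-1, 816 in FICB cells, 27.9 in fibroblasts and 305 in primary neurons-1. Uchl1, a neuronal ubiquitin hydrolase, was 335 FPKM in colonies-1, 60.2 in FICB cells and 716 in primary neurons-1. Stmn2, a regulator of axonal microtubules, was 264 FPKM in colonies-1, 78.7 in FICB cells, 37.3 in fibroblasts and 383 in primary neurons-1. Colonies-1 lay between FICB cells and primary neurons for Uchl1 and Stmn2, and below FICB cells for Gap43.

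The relatives of Stmn2 were unequal. Stmn4 was 201 FPKM in colonies-1 against 54.7 in FICB cells, while Stmn3 was 163 against 151. Dpysl3, a collapsin response mediator of growing axons, was 197 FPKM in colonies-1, 53.8 in FICB cells and 70.4 in fibroblasts. The single member past 2-fold in the other direction was Elavl2, a neuronal RNA-binding protein, with 12.9 FPKM in colonies-1 and 26.9 in FICB cells.

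Measured against primary neurons-1, 12 of the 25 genes were at least 2-fold lower in colonies-1, where 14.5% of all genes were. In FICB cells 20 of the 25 were, where 25.6% of all genes were. The sets share the primary-neuron library and are given side by side for that reason. Against the fibroblasts, all 25 genes were at least 2-fold higher in colonies-1, beside 25.2% of all genes, and 21 were in FICB cells, beside 15.6% of all genes. That pair shares the fibroblast library.

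Genes of the synaptic vesicle and its release differed less. Of 25 listed, 8 were at least 2-fold higher in colonies-1 and 0 lower, with a median of 0.61. Syp, synaptophysin of the vesicle membrane, was 213 FPKM in colonies-1, 135 in FICB cells, 0.04 in fibroblasts and 61.6 in primary neurons-1. Vamp2, a vesicle SNARE, was 99.8 against 71.8 FPKM, and Rab3a, a vesicle GTPase, was 79.6 against 62.0. Syt1, the calcium sensor of fast release, stood apart with 12.2 FPKM in colonies-1, 0.78 in FICB cells and 13.3 in primary neurons-1. It was the largest difference of this list, at 2.90 on the log2 scale. Syngr1, a vesicle membrane protein, was 89.4 FPKM in colonies-1 and 117 in FICB cells. Atp6v0a1, a proton-pump subunit also found outside neurons, was 87.5 FPKM in colonies-1 and 128 in FICB cells.

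**Figure D3:**
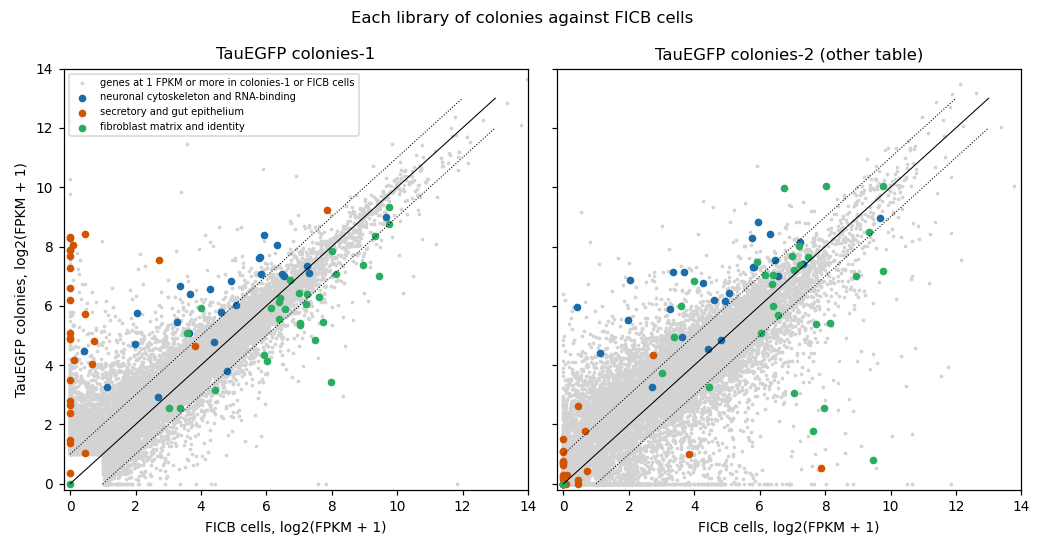
Level of each gene in FICB cells (x axis) and in colonies-1 (left) or colonies-2 of another table (right), as log2(FPKM + 1), with equality as a solid line and 2-fold as dotted lines. Orange points of secretory and gut epithelium stand at the left edge high above the line for colonies-1 and mostly near 0 for colonies-2, and blue neuronal points lie mostly on or above the line in both panels.

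Ion channels were mostly close. Among 25 voltage-gated channel genes 6 were higher and 1 was lower, with a median of 0.32. Scn3b, an auxiliary sodium-channel subunit, was 24.9 FPKM in colonies-1 and 33.5 in FICB cells. Cacnb3, an auxiliary calcium-channel subunit, was 28.9 FPKM in colonies-1, 23.0 in FICB cells, 41.6 in fibroblasts and 109.5 in primary neurons-1. Scn3a, a pore subunit of embryonic neurons, was 4.72 FPKM in colonies-1, 0.03 in FICB cells and 7.55 in primary neurons-1, the widest difference among the channels at 2.48.

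For glutamate signalling 7 of 21 genes were higher and 2 lower, with a median of 0.47. Camk2b, a calcium-dependent kinase of synapses, was 19.4 FPKM in colonies-1, 1.74 in FICB cells and 61.6 in primary neurons-1. Gria3, an AMPA-receptor subunit, was 10.03 FPKM in colonies-1, 24.8 in FICB cells and 2.66 in primary neurons-1. Grin1, the obligatory NMDA-receptor subunit, was 12.3 against 14.2 FPKM, and Dlg4, a scaffold of the postsynaptic density, was 68.6 against 40.6.

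For GABA signalling 8 of 19 genes were higher and 1 lower, with a median of 0.83. Gad1, which makes GABA, was 25.3 FPKM in colonies-1, 11.3 in FICB cells, listed at 0 in fibroblasts and 32.2 in primary neurons-1. Slc32a1, which loads GABA into vesicles, was 6.91 FPKM in colonies-1 and 11.6 in FICB cells. Gabra3, a receptor subunit, was 9.24 against 0.46 FPKM.

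Of the 17 genes of monoamine and cholinergic identity 8 were higher and 1 lower, all at low levels. Tph1, a serotonin-making enzyme, was 5.30 FPKM in colonies-1 and listed at 0 in FICB cells, and Dbh, which makes noradrenaline, was 4.03 against a listed 0. Th, the enzyme that makes the dopamine precursor, was 0.32 FPKM in colonies-1 and listed at 0 in FICB cells.

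Many transcription factors of neurons were higher in colonies-1. From the 29 proneural and neuronal factors 12 were at least 2-fold higher and 0 lower, with a median of 0.60, and 20 reached 1 FPKM in either library. Sox11 was 30.9 FPKM in colonies-1, 6.57 in FICB cells and 126 in primary neurons-1. Its relative Sox4 was 128 FPKM in colonies-1, 45.0 in FICB cells and 404 in primary neurons-1. Zic1, a zinc-finger factor of the dorsal neural tube, was 46.0 FPKM in colonies-1, 8.22 in FICB cells and 33.5 in primary neurons-1. Pou4f1, a factor of sensory and habenular neurons, was 10.002 FPKM in colonies-1, 0.10 in FICB cells and 0.78 in primary neurons-1. Pou4f1 was thus the member that exceeded primary cortical neurons most clearly, and Scrt1, a neuronal repressor, was similar in both at 13.2 and 17.3 FPKM.

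Defining factors of the cerebral cortex were near 0 in both libraries. Neurod2 was 0.05 FPKM in colonies-1, 0.06 in FICB cells and 142 in primary neurons-1. Neurod6 was 0.31 FPKM in colonies-1, listed at 0 in FICB cells and 132 in primary neurons-1. Emx1, Tbr1 and Eomes were all under 1 FPKM in both libraries and between 28.7 and 44.4 FPKM in primary neurons-1. Lhx2 was 1.43 against 7.47 FPKM, and Nr2f1, which is expressed widely in the nervous system, was 38.6 against 13.6. Of the 18 genes of cortical identity 4 were higher in colonies-1 and 3 lower.

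Neural progenitor genes had 8 of 15 higher and 0 lower, with a median of 1.02. Fabp7, a fatty-acid binding protein of radial glia, was 68.2 FPKM in colonies-1, 0.44 in FICB cells, 3.18 in fibroblasts and 1073 in primary neurons-1. Sox2, a factor of neural stem cells, was 11.4 FPKM in colonies-1 and 0.15 in FICB cells. Vim, an intermediate filament of mesenchyme and progenitors, was 861 against 1568 FPKM, with 2223 in fibroblasts.

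A few neuropeptides were higher in FICB cells. Penk, the precursor of enkephalin (chr4:4133531-4138819, minus strand, mm10), was 1151 FPKM in FICB cells, 84.5 in colonies-1, 125 in fibroblasts, 4.23 in primary neurons-1 and 39.2 in brain. FICB cells stood far above the other 4 libraries, and colonies-1 lay below the fibroblasts. The difference was -3.75 on the log2 scale. Npy, neuropeptide Y, was 125 FPKM in FICB cells, 40.9 in colonies-1 and 50.6 in primary neurons-1. Adcyap1, the precursor of the cyclic AMP-raising peptide PACAP, was 37.0 FPKM in FICB cells and 11.5 in colonies-1.

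Other peptides were higher in colonies-1 or close. Sst, somatostatin, was 187 FPKM in colonies-1, 0.23 in FICB cells, listed at 0 in fibroblasts, 75.8 in primary neurons-1 and 266 in brain. Pdyn, the precursor of dynorphin, was 23.8 FPKM in colonies-1 against 0.12 in FICB cells. Vip and Tac1, the vasoactive intestinal peptide and the precursor of substance P, were 80.1 and 87.9 FPKM in colonies-1, and 29.6 and 25.5 in FICB cells. The opioid precursors Penk and Pdyn thus had opposite directions. Cartpt, the precursor of the CART peptides, was 469 FPKM in colonies-1, 767 in FICB cells, listed at 0 in fibroblasts and 0.69 in primary neurons-1. Vgf, a secreted protein of dense-core vesicles, was 843 FPKM in colonies-1, 426 in FICB cells and 49.1 in primary neurons-1. Scg2, secretogranin II, was 187 FPKM in colonies-1, 195 in FICB cells and 10.2 in primary neurons-1.

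Across the list 10 of 25 genes of neuropeptides, granins and their processing were higher in colonies-1 and 3 were lower, with a median of 0.56. The summed level of the list was 2883 FPKM in colonies-1, 3508 in FICB cells, 507 in fibroblasts and 719 in primary neurons-1. Both induced libraries thus lay above the cortical neurons in this sum. With colonies-2 of the other table in place of colonies-1 the median was -1.55, and the sum in colonies-2 was 805 FPKM, with Cartpt at 15.8, Vgf at 52.8, Vip listed at 0 and Penk at 73.5.

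**Figure D4:**
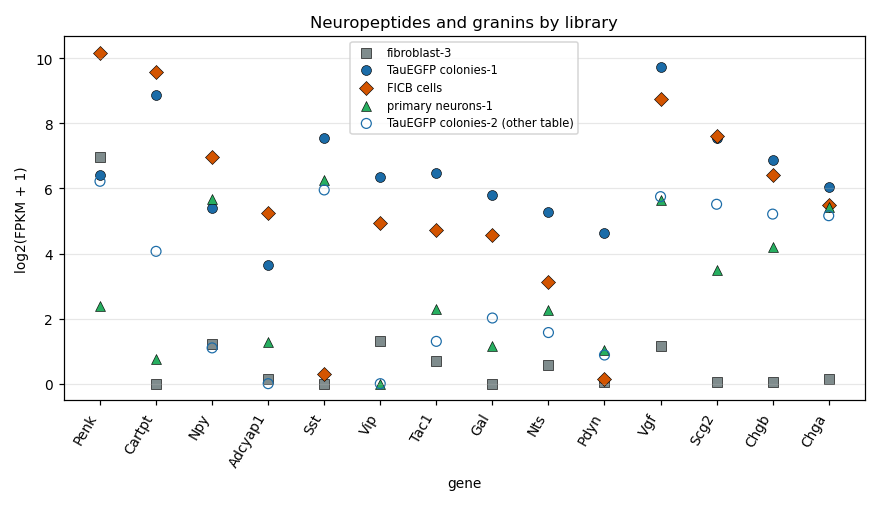
Levels of 14 neuropeptides and granins as log2(FPKM + 1) in fibroblasts (grey squares), colonies-1 (filled blue circles), FICB cells (orange diamonds), primary neurons-1 (green triangles) and colonies-2 of another table (open circles). Penk, Cartpt, Npy and Adcyap1 are highest in FICB cells, Sst and Pdyn separate colonies-1 from FICB cells, and Scg2 coincides in both.

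Promoters of the neuropeptide genes that carry the cAMP response element are shown because the FICB mixture contains forskolin. The motif searched was TGACGTCA, which reads the same on both strands, in the 120 bases before the transcript start. RefSeq promoters of GRCm38.p6 were used, and 20 of the 25 listed genes had an entry. The motif was in 5 of these, Cartpt, Chgb, Pcsk1, Scg2 and Sst, and in 391 of all 27025 genes with an entry, which is 1.45%. The windows of 3 of them follow, 5′ to 3′ on the gene's strand, with the motif in capitals, at chr16:23890845-23890964 (minus strand) for Sst, chr13:99900684-99900803 (minus strand) for Cartpt and chr1:79440027-79440146 (minus strand) for Scg2.
Sst: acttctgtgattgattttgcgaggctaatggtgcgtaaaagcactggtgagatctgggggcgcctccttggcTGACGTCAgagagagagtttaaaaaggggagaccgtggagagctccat
Cartpt: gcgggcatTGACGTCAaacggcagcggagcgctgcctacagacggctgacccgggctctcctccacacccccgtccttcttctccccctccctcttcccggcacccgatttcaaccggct
Scg2: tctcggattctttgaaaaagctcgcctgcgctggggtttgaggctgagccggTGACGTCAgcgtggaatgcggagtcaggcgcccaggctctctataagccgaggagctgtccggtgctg
The motif begins 48 bases before the start in Sst, 112 in Cartpt and 68 in Scg2. Among genes with the motif, Sst was past 2-fold, at 187 FPKM in colonies-1 against 0.23 in FICB cells. Less than 2-fold apart were Cartpt at 469 against 767, Scg2 at 187 against 195 and Chgb at 117 against 84.7. Whether the motif bears on these levels was not tested. Penk and Vgf had no entry in the promoter table.

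Immediate genes of cyclic AMP and neuronal activity had 8 of 23 members higher in colonies-1 and 0 lower, with a median of 0.75, or -0.66 with colonies-2 in its place. Fos was 77.7 FPKM in colonies-1, 8.23 in FICB cells and 957 in primary neurons-1. Junb was 184 against 122 FPKM, and Egr1, a zinc-finger factor induced by many stimuli, was level at 72.7 and 70.6. Areg, a ligand of the EGF receptor, was 75.6 FPKM in colonies-1, 37.5 in FICB cells and 0.76 in fibroblasts.

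Summed over its list, fibroblast identity was lower in colonies-1 than in FICB cells, and below the starting cells in both libraries. Sfrp2, a secreted modulator of Wnt signalling made by fibroblasts (chr3:83766321-83774316, plus strand, mm10), was 251 FPKM in FICB cells, 199 in fibroblasts, 9.89 in colonies-1, 14.4 in primary neurons-1 and 9.29 in brain. FICB cells were at the level of the fibroblasts and the other 3 libraries were low. The difference of -4.53 was the largest on the FICB side among the named genes. Il1rl1, the receptor of interleukin 33, was 207 FPKM in fibroblasts, 26.2 in FICB cells and 0.94 in colonies-1.

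From the 30 genes of fibroblast matrix and identity 13 were at least 2-fold lower in colonies-1 and 2 were higher, with a median of -0.90. With colonies-2 in place of colonies-1, across tables, this median was 0.16. Mmp3, a matrix protease, was 129 FPKM in colonies-1, 698 in FICB cells and 237 in fibroblasts. Fn1, fibronectin, was 167 FPKM in colonies-1, 493 in FICB cells and 899 in fibroblasts. Dcn and Mmp2, a small proteoglycan and a gelatinase, were 329 and 436 FPKM in colonies-1 and 645 and 864 in FICB cells, and all 4 values exceeded the 179.6 and 230.2 of the fibroblasts. Col3a1 was 644 in colonies-1, 865 in FICB cells and 501 FPKM in fibroblasts. Col1a1 was alike in both, at 227 and 258 FPKM, against 2144 in fibroblasts. The higher genes were Lox, which cross-links collagen, at 60.6 against 14.9 FPKM, and Col12a1 at 33.0 against 10.9.

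In comparison with the fibroblasts themselves, 21 of the 30 genes were at least 2-fold lower in colonies-1 beside 8.56% of all genes, and 16 were in FICB cells beside 11.4%. The summed level of the list was 16888 FPKM in fibroblasts, 6329.9 in FICB cells, 3114 in colonies-1 and 152 in primary neurons-1. Both induced libraries therefore held far more of these transcripts than the cortical neurons. Contractile genes were below the fibroblasts in colonies-1 and in FICB cells. Cald1, which binds actin, was 100.4 FPKM in colonies-1, 249.9 in FICB cells and 713 in fibroblasts. Acta2, smooth muscle actin, was 1.24 FPKM in colonies-1, 2.15 in FICB cells and 2955 in fibroblasts, and all 11 contractile genes were at least 2-fold below the fibroblasts in each library. In colonies-2 of the other table Acta2 was 193 FPKM, and the list median against FICB cells was 1.15 in place of -0.17. Myl9, a myosin light chain, was the member that differed most between colonies-1 and FICB cells, at 49.6 against 1.57 FPKM.

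Inflammatory genes were high in both libraries. Saa3, an acute-phase protein, was 5296 FPKM in colonies-1, 3488 in FICB cells, 1801 in fibroblasts, listed at 0 in primary neurons-1 and 0.64 in brain. The chemokine Ccl2 was 207 FPKM in colonies-1, 1056 in FICB cells and 1337 in fibroblasts. Cxcl1, which attracts neutrophils, was 219 FPKM in colonies-1, 456.5 in FICB cells and 399.9 in fibroblasts. S100a8, a calcium-binding alarmin, was 129 FPKM in colonies-1, 1446 in FICB cells and 18.6 in fibroblasts, and Ccl11, the eosinophil chemokine eotaxin, was 10.1, 124 and 31.6 in the same order. Of the 13 listed genes 3 were higher in colonies-1 and 5 lower, with a median of 0.44. With colonies-2 in place of colonies-1 the median was -4.20, and Saa3 was 14.3 FPKM there, Ccl2 was 2.06 and S100a8 was listed at 0.

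Interferon-response genes were higher in colonies-1 without exception among the 10 listed, with a median of 2.76. Bst2, which tethers viruses to the membrane, was 389 FPKM in colonies-1, 117 in FICB cells and 58.9 in fibroblasts. Isg15, a ubiquitin-like modifier, was 55.4 FPKM in colonies-1 and 8.86 in FICB cells. Rsad2, an antiviral enzyme, was 32.2 against 0.42 FPKM, and in colonies-2 it was 0.41 FPKM. The median difference of this list between colonies-2 and FICB cells was 0.04.

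Wnt targets and feedback inhibitors had 4 of 23 genes higher and 3 lower, with a median of 0.30. Ccnd1, cyclin D1, was 63.7 FPKM in colonies-1, 293 in FICB cells and 137 in fibroblasts. Apcdd1, a membrane inhibitor of the pathway, was 58.8 FPKM in colonies-1, 72.0 in FICB cells and 8.34 in fibroblasts. Zcchc12, a zinc-finger protein expressed in brain, was 44.6 FPKM in colonies-1, 1.80 in FICB cells and 33.1 in primary neurons-1.

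Retinoic acid genes had 9 of 15 higher and 1 lower, with a median of 1.73, or 0.70 with colonies-2 in place of colonies-1. The lower gene, Crabp1, binds retinoic acid in the cytosol and was the most abundant of the list, with 1819 FPKM in colonies-1, 4591 in FICB cells and 1101 in fibroblasts. Dhrs3, which returns retinal to retinol, was 44.1 against 4.44 FPKM. Cyp26a1, which breaks retinoic acid down, was 43.9 FPKM in colonies-1 and listed at 0 in FICB cells and fibroblasts.

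Trunk Hox genes, which record position along the body axis, were present in both libraries and near 0 in brain. Hoxb9 was 114 FPKM in colonies-1, 11.1 in FICB cells, 9.89 in fibroblasts and listed at 0 in primary neurons-1 and brain. Hoxb8 was 54.3 FPKM in colonies-1, 5.11 in FICB cells and 8.44 in fibroblasts, and Hoxb7 was 41.3, 15.1 and 3.65 in the same order. Of 17 posterior Hox genes 8 were higher in colonies-1 and 3 lower, with a median of 0.63. The lower ones were distal genes, Hoxa11 at 3.73 against 12.8 FPKM, Hoxa13 at 0.14 against 2.48 and Hoxd11 at 2.06 against 6.505. Those 3 names were chosen after their values were seen. Among 13 anterior Hox genes 7 were higher and 0 lower, with a median of 1.08. Neighbouring Hox genes overlap in places and the library kit does not mark strand, so reads of antisense transcripts cannot be told apart from theirs.

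**Figure D5:**
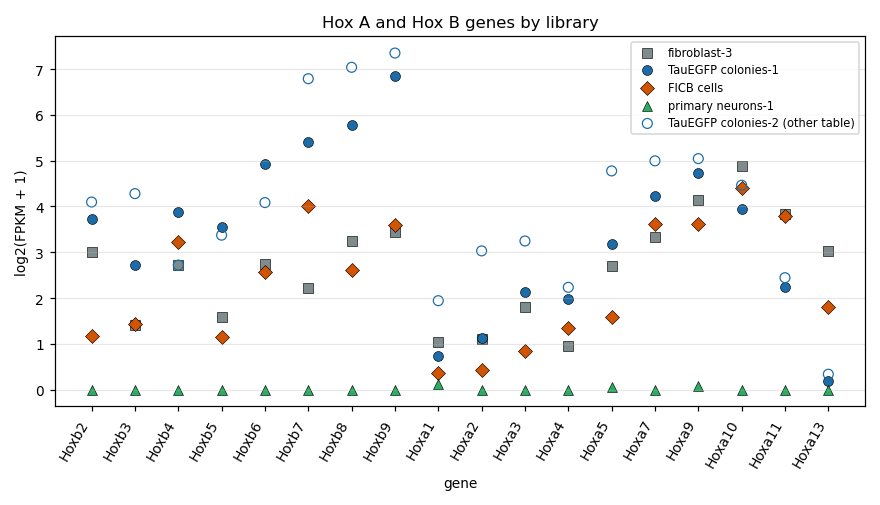
Levels of the Hox A and Hox B genes of the lists as log2(FPKM + 1), with the symbols of the neuropeptide plot. Hoxb6 to Hoxb9 stand highest in the colonies, primary neurons-1 lie at or near 0 throughout, and Hoxa11 and Hoxa13 are higher in FICB cells than in colonies-1.

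Genes that led on the FICB side also included surface and secreted proteins. Cd34, a sialomucin of progenitor and stromal cells, was 335 FPKM in FICB cells, 23.97 in colonies-1 and 18.4 in fibroblasts. Clec14a, a lectin known from endothelium, was 40.1 FPKM in FICB cells and 1.71 in colonies-1. Nxph1, a secreted ligand of neurexins, was 56.5 FPKM in FICB cells, 2.03 in colonies-1, listed at 0 in fibroblasts and 5.07 in primary neurons-1. Calb1, the calcium buffer calbindin, was 60.9 FPKM in FICB cells, 5.46 in colonies-1 and 3.60 in primary neurons-1. Both neuronal genes, Nxph1 and Calb1, thus exceeded the cortical neurons in FICB cells. Serpina3g, Rpl39l and Pcdhgc4 also led the list, with 191, 16.4 and 49.6 FPKM in FICB cells against 17.9, 0.77 and 4.03 in colonies-1. Their values are uncertain, since each shares sequence with close relatives or overlapping genes.

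Markers of other cell types were checked in both libraries. The macrophage genes C1qa and Cx3cr1 were at most 0.18 FPKM in colonies-1 and at most 0.10 in FICB cells. Aif1, also on the macrophage list, was 0.34 FPKM in colonies-1, 2.12 in FICB cells and listed at 0 in fibroblasts. Of the 12 macrophage genes 4 reached 1 FPKM in either library, with 1 higher in colonies-1 and 2 lower. Summed over the 12 macrophage genes the level was 66.6 in colonies-1, 32.3 in FICB cells and 118 FPKM in primary neurons-1. Cd68, a lysosomal protein also made by other cells, was 32.8 and 24.04 of these, and Cd14, a receptor for bacterial lipopolysaccharide, was 32.7 and 3.48. The oligodendrocyte factors Olig1 and Olig2 were at most 0.04 FPKM in both libraries. Of the 12 oligodendrocyte and Schwann genes 4 were higher in colonies-1 and 1 lower, with Cldn11, a claudin also made outside the nervous system, at 16.6 against 0.15 FPKM and Pmp22, a myelin protein also made by fibroblasts, at 30.5 against 164. Among 10 endothelial genes 3 were higher and 0 lower, while Pecam1 and Cldn5 were at most 0.24 FPKM in both. Astrocyte genes had 5 of 12 higher in colonies-1 and 0 lower, with Aldoc at 26.6 against 2.73 FPKM and Gfap at 3.06 against 0.07. The higher endothelial genes were Flt1, a receptor of vascular growth factors, at 26.01 against 0.64 FPKM, Cdh5, the vascular cadherin, at 3.86 against 0.36, and Esam, an adhesion molecule, at 5.12 against a listed 0. The part of any other cell type in the epithelial and neuronal differences was not tested.

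Colonies-2, set against the same FICB library, had many neuronal genes higher, while most gut-epithelium genes were under 1 FPKM in both libraries. Against FICB cells, 2961 of 13745 genes were at least 2-fold higher in colonies-2, 21.5%, and 2046 were lower, 14.9%, across tables. The neuronal cytoskeleton list had 18 of 25 higher and 0 lower. Dcx was 61.3 FPKM, Map2 107 and Stmn2 342 in colonies-2. Of the 28 genes of secretory and gut epithelium, 8 reached 1 FPKM in either library, and of these 6 were higher and 2 lower. Gkn1 was at 1.17 FPKM, Krt8, counted in the endoderm list, at 5.15, and Olfm4, Tff2 and Wfdc2 were listed at 0. Both comparisons share the FICB library. Colonies-1 and colonies-2 were themselves at least 2-fold apart in 25.2% of 14332 genes, beside 21.9% of genes for colonies-1 and FICB cells within the table. Table, apparent depth and derivation differ between the colonies libraries, and these cannot be told apart.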

How the data were processed

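Poly-A RNA from each library was sequenced without replicates of the FICB cells. The authors deposited FPKM values, which the header of the main table names, and for the other tables the unit was judged from the values. The submitters' processing notes name TopHat2 as aligner and mm10 as genome build. The counting tool, annotation and strand setting are not given in the sources used here. Of 4 tables read, the main one held 43496 rows, of which 99 with repeated identifiers were dropped, leaving 43397 genes. GENCODE vM21 gave names and positions, counted from 1, for 97.3% of them. In the table of XEN-like colonies 8 columns of other samples were not used.

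Total counts are unknown. Apparent depth was estimated from the smallest values of single-exon genes and gives no interval.

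Values were compared as log2(FPKM + 1) in Python 3.11.15 with pandas 2.3.3 and numpy 2.4.6. Genes entered at 1 FPKM or more in either library, and called means at least 2-fold apart. Such a difference understates the change of low genes. The fold rule was tested on simulated data, with 4-fold changes planted in genes of at least 5 FPKM and counting noise only. That simulation does not cover variation between libraries or genes near the filter. Alternatives were a pseudocount of 0.1 FPKM, no filter, a filter at 5 FPKM, median-ratio scaling (factor 1.18), upper-quartile scaling (factor 1.16), a 4-fold threshold and colonies-2 in place of colonies-1.

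The members and the 34 gene lists, with 580 genes in the table, were chosen with earlier results of these data known. The text names the 4 markers, the 12 largest differences in each direction with at least 10 FPKM in the higher library, and up to 6 of the highest members of each list. Defining markers of a cell type, and members that stood out within a list (such as Sst, Pdyn, Vip, Tac1, Npy, Adcyap1, Elavl2, Syt1, Scn3a, Sox17, Gata4, Gata6, Sox7, Lox, Col12a1, Reg3g, Tff1, Elf3, Cd14 and Cldn11), were named after their values were seen. A few genes are counted in their lists and are not reported here by name.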

Additional observations from a re-analysis of the deposited data

Results flagged for a closer look

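Libraries outside the comparison held signals that differ from their labels. The library labelled P24 XEN-derived neuronal cells, in a table of its own, held Tff1 at 2723 FPKM, Tff3 at 4724, Gkn1 at 567 and Gkn2 at 758. Fibroblasts of the main table were listed at 0 for all 4 genes. The neuronal genes Dcx and Stmn2 were 0.02 and 1.09 FPKM in that library. Primary neurons-2 held C1qa, a complement gene of microglia, at 1149.7 FPKM and Gfap at 2688 FPKM, against 20.9 and 2.29 in primary neurons-1 of the main table.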

How the results depend on the processing

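No paired analysis was possible because each side had 1 library and no test. A pseudocount of 0.1 FPKM, no filter, and both scalings left the 24 named genes on their side of 2-fold. These genes were picked as the largest differences, so that outcome was fixed in advance and is no support for them. The genes higher in colonies-1 numbered 1580 with a filter at 5 FPKM. With a 4-fold threshold 775 genes were higher and 123 lower. Upper-quartile scaling gave 2045 higher and 981 lower genes. With colonies-2 in place of colonies-1 2046 genes were lower. That exchange reversed 4 named genes, Olfm4 at -0.083, Wfdc2 at -0.46, Obfc1 at -0.14 and Ltf at -0.10. The reversals of Olfm4, Wfdc2 and Ltf lay between values under the filter in both libraries. It took 3 genes below 2-fold and left 16 with the same direction and call, while Pcdhgc4 had no value there. Those of the 16 that were higher in colonies-1 all shrank. Pglyrp1 went from 9.79 to 1.54, Gkn2 from 8.32 to 1.07 and Gkn1 from 8.28 to 1.12. Gpx2 went from 8.01 to 1.42 and S100g from 7.55 to 3.90. The rest of the 16 were lower than FICB cells in both colonies libraries. The exchange also reversed 6 of 34 list medians: neuropeptides to -1.55, cyclic AMP response to -0.66, fibroblast identity to 0.16, smooth muscle to 1.15, skeletal muscle to -1.77 and inflammatory genes to -4.20. A further 7 medians fell under 2-fold, core extraembryonic endoderm to 0.35, visceral endoderm to 0.30, secretory and gut epithelium to 0.07, epithelial junctions to 0.29, retinoic acid to 0.70, interferon response to 0.04 and Igf genes to 0.65, and 3 passed it. The cause was not tested. Values near 0 FPKM rest on few fragments at this depth.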

Other observations

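Embryonic skeletal muscle genes were present at low levels in both induced libraries and, apart from Des, hardly at all in the fibroblasts. Des, the muscle filament desmin, was 16.4 FPKM in colonies-1, 8.84 in FICB cells and 23.7 in fibroblasts. Myl1, a fast myosin light chain, was 37.9 FPKM in colonies-1, 28.9 in FICB cells and 0.38 in fibroblasts. Tnnc2, a fast troponin, was 20.1 against 9.56 FPKM, with 0.58 in fibroblasts. Myod1, the defining factor of the lineage, was at most 0.10 FPKM in both. Of 14 muscle genes 3 were higher in colonies-1 and 2 lower, and the summed level was 104 FPKM in colonies-1, 77.7 in FICB cells, 26.3 in fibroblasts and 4.12 in colonies-2 of the other table.

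Imprinted growth genes differed between colonies-1 and FICB cells. H19, an imprinted noncoding RNA, was 1562 FPKM in colonies-1, 59.2 in FICB cells and 545 in fibroblasts. Its neighbour Igf2, a fetal growth factor, was 401 against 36.4 FPKM, with 337 in fibroblasts. Igfbp2, which binds it, was 232 against 8.37 FPKM, and Igf2r, which clears it, went the other way at 100.4 against 224. In colonies-2 H19 was 1663 FPKM, Igf2 was 600.0 and Igfbp2 was 241.

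Genes of p53 and senescence leaned to the FICB side, with 5 of 12 lower in colonies-1, 2 higher and a median of -0.31. Cdkn2a, an inhibitor of the cell cycle, was 463 FPKM in colonies-1, 1077 in FICB cells, 163 in fibroblasts and listed at 0 in primary neurons-1. Cdkn1a, a further inhibitor, was close at 563 and 645 FPKM. Division genes were low in both, with Cdk1 at 10.3 FPKM in colonies-1, 4.51 in FICB cells and 70.5 in fibroblasts. Of 20 genes of replication and mitosis 18 were at least 2-fold below the fibroblasts in colonies-1, beside 8.56% of all genes. In FICB cells 19 were, beside 11.4% of all genes.

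Obfc1, which encodes a subunit of a complex that protects telomeres, was 2834 FPKM in colonies-1. It was between 9.54 and 11.0 FPKM in the other 4 libraries of the table, 9.83 in colonies-2 and 29.0 in the P24 library.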
